A study of Mus musculus with 8 samples.

Results

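Secretoglobins are small secreted proteins and BPI-fold proteins are secreted lipid-binding proteins, and both coat the lining of the airways. The genes described here were found by matching a list of 10 names to the gene name column of the array files. The match gave 8 genes with 10 probes, of 36153 gene names and 55660 probes on the array. They are the secretoglobins Scgb1a1, Scgb3a1, Scgb3a2 and Scgb1c1, the BPI-fold gene Plunc, and Cbr2, Lypd2 and Upk3a, which are made in airway epithelium. Plunc is the older name of Bpifa1 and counts as the same gene. No probe carried the name Bpifb1, but the accession of U46068 (NM_001012392) belongs to Bpifb1 in the RefSeq table, so that gene is described beside the 8 and not counted among them.

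Total RNA of whole lung from C57BL/6 mice was hybridised to single-colour Agilent arrays. All mice had been treated with lipopolysaccharide (LPS, a bacterial outer-membrane component that inflames the lung) for 12 h. The groups were 4 wild-type samples and 4 samples with a lung-specific knockout of GGPPS1 (gene symbol Ggps1), the enzyme that makes the geranylgeranyl lipid attached to small GTPases. The sources used here do not state what drives the deletion, which cells it reaches or how old the mice were. The design text gives 4 mice per group, so p-values measure the spread between samples taken as separate mice, technical spread included. The title sets out acute lung injury by LPS and the loss of GGPPS1 as its question, and mice without LPS were not analysed here.

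Club cells line the bronchioles of the mouse lung and secrete Scgb1a1 and Scgb3a2, while Cbr2, a carbonyl reductase, is an enzyme inside the same cells. Scgb3a1, Bpifa1 and Bpifb1 are made mainly further up, by secretory cells and glands of the large airways and the nose. Bpifa1, also called SPLUNC1, binds lipids and acts against bacteria on the airway surface. In whole lung, fewer cells of a type and less RNA per cell cannot be told apart.

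Promoters are shown for Scgb3a1 and Bpifa1, which varied widely between samples, and for Cbr2 and Scgb1c1, which did not. Each is the 250 bases before the start of the gene in RefSeq (build GRCm38.p6), written 5′ to 3′ on the strand of the gene. The windows are chr11:49663345-49663594 (+ strand) for Scgb3a1, chr2:154142630-154142879 (+ strand) for Bpifa1, chr11:120732022-120732271 (- strand) for Cbr2 and chr7:140845315-140845564 (+ strand) for Scgb1c1. Capitals mark every match, on either strand, to 6 motifs.
Scgb3a1: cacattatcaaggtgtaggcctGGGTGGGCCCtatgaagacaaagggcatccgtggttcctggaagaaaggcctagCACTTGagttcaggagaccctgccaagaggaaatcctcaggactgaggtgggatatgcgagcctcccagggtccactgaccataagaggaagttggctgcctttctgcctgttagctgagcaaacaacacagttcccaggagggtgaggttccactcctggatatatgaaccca
Bpifa1: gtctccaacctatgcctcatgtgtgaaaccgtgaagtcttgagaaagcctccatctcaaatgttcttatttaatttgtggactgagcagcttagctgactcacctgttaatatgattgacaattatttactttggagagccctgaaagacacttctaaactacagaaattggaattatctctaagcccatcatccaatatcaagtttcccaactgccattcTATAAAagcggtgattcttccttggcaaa
Cbr2: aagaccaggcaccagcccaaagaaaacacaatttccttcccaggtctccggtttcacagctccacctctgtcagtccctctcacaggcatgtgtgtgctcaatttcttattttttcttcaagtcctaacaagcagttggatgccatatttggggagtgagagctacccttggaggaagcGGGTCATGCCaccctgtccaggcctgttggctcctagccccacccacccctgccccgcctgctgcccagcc
Scgb1c1: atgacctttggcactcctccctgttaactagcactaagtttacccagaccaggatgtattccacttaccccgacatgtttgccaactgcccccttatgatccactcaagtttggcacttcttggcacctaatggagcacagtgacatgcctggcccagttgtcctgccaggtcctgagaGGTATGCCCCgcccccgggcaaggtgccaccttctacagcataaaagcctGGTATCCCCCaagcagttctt
The motifs were TGTTTAC for FOXA factors, CAAGTG for NKX2 factors, ACAATG for SOX factors, TTNNGCAA for C/EBP, GGGNNNNNCC for NF-kB and TATAAA for a TATA box. Among 32851 RefSeq promoters cut to the same window, the FOXA letters were in 3.17%, the NKX2 letters in 11.6%, the SOX letters in 10.7%, the C/EBP letters in 9.56%, the NF-kB letters in 45.8% and the TATA letters in 12.4%. Scgb3a1 held the NKX2 letters on the reverse strand, 174 to 169 bases before the start, and the NF-kB letters on both strands at 1 place, 228 to 219 bases before it. Bpifa1 held the TATA letters 29 to 24 bases before the start and no other match. Cbr2 held the NF-kB letters at 1 place (71 to 62 bases before the start) and Scgb1c1 at 2 places (71 to 62 and 21 to 12). Scgb3a1 and Bpifa1 thus had no motif of the 6 in common in these windows, which says only that the letters are not there. Of 9 genes looked up, 6 had an entry in the promoter table.

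Values are log2 signals set against the 75th percentile of their own array, so 0 is the level of that percentile and each unit is a doubling. The share of spots well above background was 61.5% to 65.3% on wild-type and 58.1% to 61.6% on knockout arrays. Wild-type samples filled row 1 of the single slide and knockout samples row 2, so position on the slide and genotype cannot be told apart. Ggps1 overlapped between the groups, at 1.26, 1.34, 1.26 and 1.40 in wild-type samples 1 to 4 and 1.32, 1.24, 1.22 and 1.24 in knockout samples 1 to 4. The deleted stretch is not named in the labels, so this probe does not check them. Sftpc, the surfactant protein that marks alveolar type 2 cells, was well above background in every sample (8.91 to 9.29).

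Of the 8 genes, 7 passed the filter on dim probes, each of them in both groups. None passed the test of genotype (limma, Benjamini-Hochberg adjusted over 24464 genes), which called 0.0613% of all genes, 0.0327% as higher and 0.0286% as lower (8 and 7 genes, or 13 and 23 with arrays centred on their medians). The average of all 7 was higher in knockout samples, as it was for 45.6% of all genes. At an unadjusted p under 0.05, 3 were higher (Cbr2, Scgb3a2 and Lypd2) and 0 lower, against 10.1% and 13.4% of all genes. A difference of 1 or more was seen for 4 (Scgb3a1, Plunc, Lypd2 and Scgb3a2) and for 1.7% of all genes. Cbr2 alone of the 7 had every knockout value above every wild-type value, which 6.08% of all genes showed, and 0 of the 7 had them all below, which 9.26% showed.

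**Figure D1:**
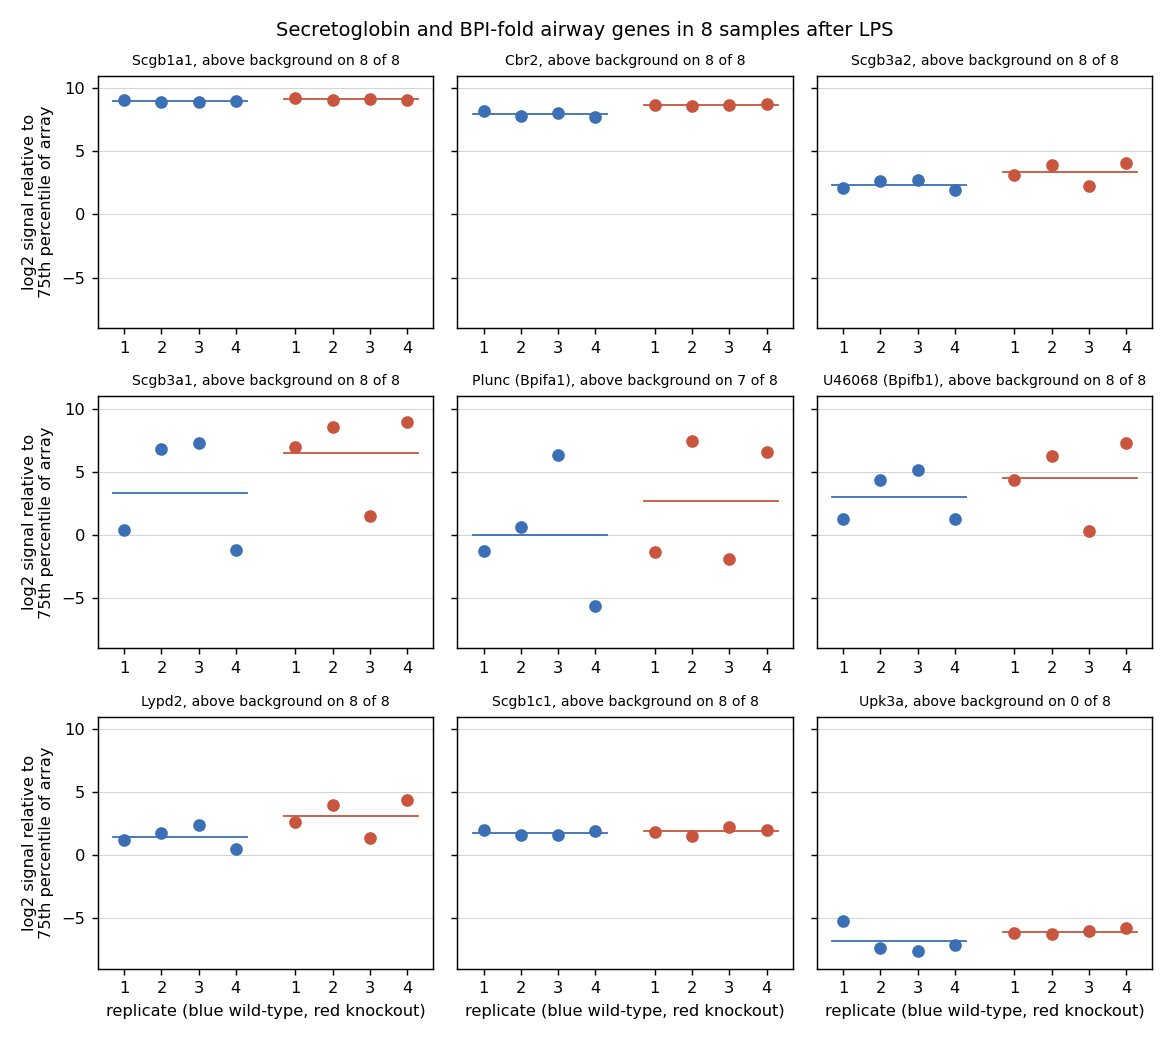
Each panel shows 1 gene and each point 1 sample, as log2 signal against the 75th percentile of its array, with a line at each group mean (blue wild-type, red knockout, 4 samples each). Scgb1a1 and Cbr2 lie in narrow bands, while Scgb3a1 runs from -1.18 to 8.99 and Plunc from -5.63 to 7.44 with the genotypes overlapping.

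Scgb1a1, the main secretory protein of club cells, had the smallest SD within genotype of these genes, 0.069. Wild-type samples 1 to 4 read 9.11, 8.93, 8.93 and 8.99, and knockout samples 1 to 4 read 9.22, 9.11, 9.18 and 9.12 (probe A_51_P128575, mm9 chromosome 19, 9158197 to 9158256). Wild-type sample 1 was level with the lowest knockout sample and the other wild-type samples lay below all knockout samples. The knockout mean was higher by 0.16 ± 0.072 (SE, n = 4 per group, 95% interval -0.00065 to 0.33; limma, adjusted p = 0.213). Unscaled, the groups overlapped, with 336573 to 367878 intensity units in wild-type and 334186 to 364386 in knockout samples. The 75th percentile itself was 646 to 754 units on wild-type and 576 to 660 on knockout arrays, and scaled Scgb1a1 followed its inverse over the 8 arrays (Pearson r = 0.91, rho = 0.98, a description in which both share the divisor). Quantile normalization gave a difference of 0.00460 and the authors' deposited values gave -0.011, so its direction depends on the scaling. The signal was 42.9% to 47.2% of the saturation value, with 0 saturated pixels, and the 10 spots of the probe varied with a CV of 1.83% to 3.46% on an array.

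Cbr2 was the gene whose genotypes stood apart. The signals were 8.25, 7.82, 8.08 and 7.76 in wild-type samples 1 to 4, against 8.66, 8.60, 8.69 and 8.73 in knockout samples 1 to 4 (probe A_55_P2122605, mm9 chromosome 11, 120590825 to 120590884). The knockout samples lay within 0.13 of each other and the wild-type samples within 0.48, with no overlap. The difference was 0.69 ± 0.12 (SE, n = 4 per group, 95% interval 0.42 to 0.96), or 1.62-fold, and missed the threshold (limma, adjusted p = 0.0572). The second probe (A_55_P2122604, 120592059 to 120592118) also had no overlap, with 4.84 to 5.35 in wild-type and 5.78 to 6.19 in knockout samples. Its difference in a fit of each probe was 0.92 ± 0.14 (SE; limma, adjusted p = 0.0570). Cbr2 passed under 4 of 10 other ways of processing, and its adjusted p from limma ran from 0.0422 to 0.149 over all settings, samples left out included.

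Scgb3a2, a club cell secretoglobin, varied within genotypes too. In replicate order, the wild-type samples gave 2.11, 2.63, 2.72 and 1.94, and the knockout samples 3.13, 3.91, 2.30 and 4.12 (probe A_55_P2027609, mm9 chromosome 18, 43926850 to 43926909). Knockout sample 3 lay inside the wild-type range and the other knockout samples above it. The difference of 1.02 ± 0.40 (SE, n = 4 per group, 95% interval 0.092 to 1.94) did not pass (limma, adjusted p = 0.180). The second probe (A_55_P2079636, 43926560 to 43926619) put the knockout samples in the same order and differed by 1.38 ± 0.65 (SE; limma on each probe, adjusted p = 0.248). Upk3a, a uroplakin that marks a variant club cell, was not well above background on any of the 8 arrays (probe A_52_P461343), so no difference is given.

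Scgb3a1, a secretoglobin of the larger airways, was bright in some samples of each genotype and dim in others. Wild-type samples 1 to 4 read 0.35, 6.84, 7.32 and -1.18, and knockout samples 1 to 4 read 6.97, 8.55, 1.54 and 8.99 (probe A_51_P110341, mm9 chromosome 11, 49478489 to 49478548). Wild-type samples 1 and 4 and knockout sample 3 were low, and no sample lay between 1.54 and 6.84. The brightest wild-type sample was 363-fold above the dimmest, and the brightest knockout sample 176-fold above its dimmest. The 10 spots of this probe varied with a CV of only 1.53% to 4.33% on an array. The group means were 3.33 ± 4.38 and 6.51 ± 3.43 (SD, n = 4 per group). Their difference of 3.18 ± 2.41 (SE, 95% interval -2.38 to 8.74) was within the spread (limma, adjusted p = 0.443), and was 1.67 without wild-type sample 4 and 4.84 without knockout sample 3. The SD within genotype of 3.93 ranked 6 of 24464 genes.

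Plunc (Bpifa1) had an SD within genotype of 4.97, rank 1 of 24464 genes. The signals were -1.24, 0.65, 6.32 and -5.63 in wild-type samples 1 to 4, against -1.32, 7.44, -1.88 and 6.61 in knockout samples 1 to 4 (probe A_51_P202331, mm9 chromosome 2, spread over 153973411 to 153973831). Wild-type sample 3 and knockout samples 2 and 4 were far above the rest, and in wild-type sample 4 the probe was not well above background. Wild-type sample 3 was at least 3158-fold higher than wild-type sample 4, whose signal was raised to the lowest one well above background on its array, and the knockout samples spanned 638-fold. The genotypes differed by 2.68 ± 3.05 (SE, n = 4 per group, 95% interval -4.35 to 9.72), less than the error (limma, adjusted p = 0.615). That value ran from 0.80 without wild-type sample 4 to 4.78 without wild-type sample 3.

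U46068 (Bpifb1), on mm9 chromosome 2 like Plunc, was low in the same 3 samples as Scgb3a1. In replicate order, the wild-type samples gave 1.25, 4.32, 5.13 and 1.23, and the knockout samples 4.37, 6.29, 0.27 and 7.28 (probe A_55_P1957797, 154046019 to 154046078). The groups overlapped and differed by 1.57 ± 1.61 (SE, n = 4 per group, 95% interval -2.15 to 5.28; limma, adjusted p = 0.574). The difference was 0.66 without knockout sample 4 and 2.99 without knockout sample 3. A second probe overlaps the first by 35 bases, so it is no separate check.

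Lypd2, a small protein of the Ly6 family, varied over a narrower range. Wild-type samples 1 to 4 read 1.25, 1.76, 2.41 and 0.54, and knockout samples 1 to 4 read 2.61, 4.01, 1.39 and 4.36 (probe A_51_P136521, mm9 chromosome 15, 74562684 to 74562743). As for Scgb3a2, knockout sample 3 lay inside the wild-type range and the other knockout samples above it. The difference of 1.60 ± 0.69 (SE, n = 4 per group, 95% interval 0.018 to 3.18) did not pass (limma, adjusted p = 0.208).

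Scgb1c1, a secretoglobin known from nasal tissue, had another order of samples. The signals were 2.04, 1.61, 1.65 and 1.90 in wild-type samples 1 to 4, against 1.88, 1.50, 2.28 and 2.03 in knockout samples 1 to 4 (probe A_52_P156775, mm9 chromosome 7, 148032087 to 148032146). Knockout sample 3, low for Scgb3a1, was the highest here and knockout sample 2 the lowest. The difference of 0.13 ± 0.18 (SE, n = 4 per group, 95% interval -0.28 to 0.53) did not pass (limma, adjusted p = 0.693), and was 0.0049 without knockout sample 3.

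**Figure D2:**
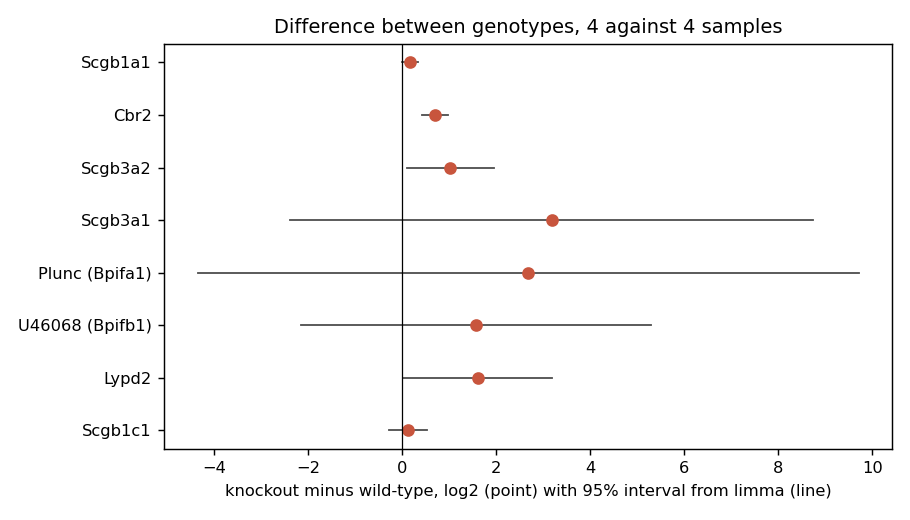
Points give the knockout minus wild-type difference (log2) of the 7 genes tested and of U46068, and lines its 95% interval from limma, unadjusted, with 4 samples per group. The interval of Scgb3a1 spans -2.38 to 8.74 and that of Plunc -4.35 to 9.72, while that of Cbr2 spans 0.42 to 0.96.

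Several of the genes put the 8 samples in nearly the same order. Of the 28 pairs of samples, Scgb3a2 and Lypd2 each ordered 27 as Scgb3a1 did, U46068 ordered 26 and Plunc 24. Among the 12 pairs within a genotype the counts were 12 for Scgb3a2, Lypd2 and U46068 and 11 for Plunc. They were 7 for Cbr2 and 4 for both Scgb1a1 and Scgb1c1. Plunc parted from Scgb3a1 in knockout sample 1, which read 6.97 for Scgb3a1 and -1.32 for Plunc, and in wild-type sample 2, which read 6.84 and 0.65. These counts describe 8 samples whose genes share arrays and RNA.

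**Figure D3:**
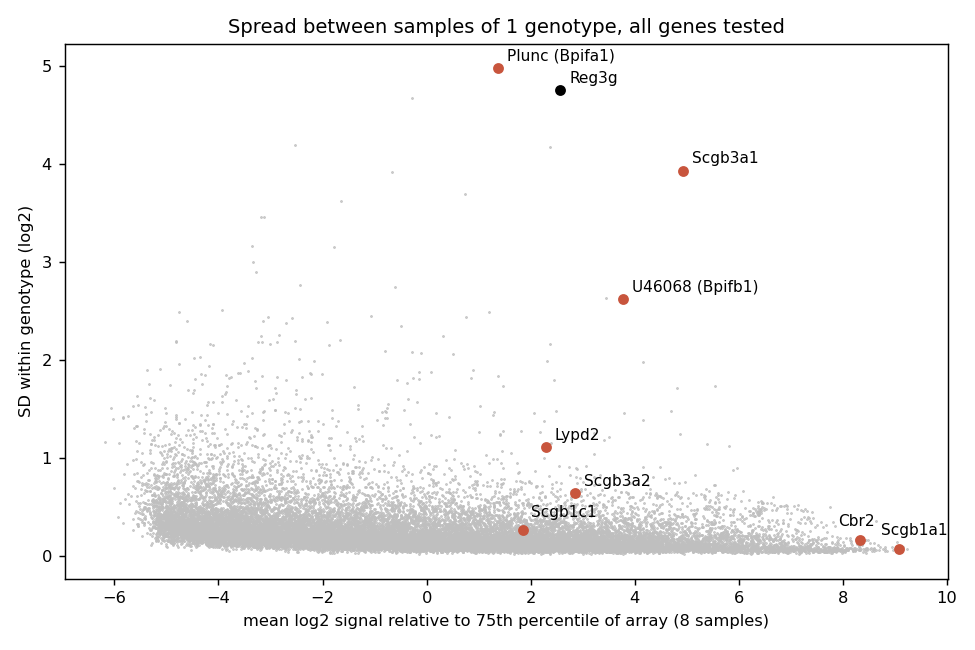
Each grey point is 1 of 24464 genes, with mean log2 signal over the 8 samples on the x axis and the SD within genotype (log2) on the y axis, and red points are the genes described here. Plunc lies at 4.97, Scgb3a1 at 3.93 and U46068 at 2.62, with Reg3g (black) next to Plunc, while Scgb1a1 lies at 0.069 and Cbr2 at 0.17.

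The genes most like Plunc over the 8 samples, among 21982 well above background on all arrays, were Ngfr (Pearson r = 0.98), Atp1b2 (0.97), Lrrc4b (0.96), Gpr162 (0.95) and Cpxm2 (0.95). Ngfr, a receptor found on basal cells and nerves, read -1.18 in wild-type sample 3, -0.79 and -0.70 in knockout samples 2 and 4, and -1.99 or less elsewhere. Those most like Scgb1a1 were AA408251 (r = 0.99), Cxcl11 (0.99), Hccs (0.97), Lcn2 (0.97) and Mlf1ip (0.97). Cxcl11, a chemokine, Hccs, which attaches heme to cytochrome c, and Lcn2, an iron-binding acute-phase protein, read 7.97 to 9.37 over the 8 samples. AA408251 and Mlf1ip were dim, at -4.67 to -3.70 and -3.30 to -2.76. All these genes share the divisor whose inverse scaled Scgb1a1 followed, and likeness apart from that divisor was not tested. In a search made after the values were seen, Muc5b, the gel-forming mucin of glands and large airways, was most like Scgb3a1 (r = 0.98). Agr2, which helps fold mucins, came next (r = 0.97), and then Cfd, a gene of the fat and thymus list (r = 0.97). These r values rank likeness over 8 samples and test nothing.

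Goblet, gland and upper airway genes, taken as a mean, followed Scgb3a1 in 12 of 12 pairs within genotypes. Of those 12 pairs, the basal and the cartilage list each followed it in 11. The ciliated, smooth muscle, and fat and thymus lists each did so in 10 and the cardiac list in 9. Counts were 7 for the neuroendocrine, 6 for the alveolar type 2 and 3 for the alveolar type 1 list. Of 16 genes of the goblet, gland and upper airway list tested, 15 were higher in knockout samples and 0 passed the test. At an unadjusted p under 0.05 (limma), 4 were higher. The median difference was 1.08 beside -0.028 over all genes. That median was 0.61 without knockout sample 4 and 1.82 without knockout sample 3. Gp2, counted among the 15, had passed the filter only through the knockout samples. Over the 13 genes well above background on all 8 arrays the median was 1.05. Spdef, the transcription factor of goblet cells, differed by 1.57 ± 0.37, Wfdc2 by 0.61 ± 0.17 and Creb3l1 by 0.39 ± 0.11 (SE; limma, adjusted p = 0.0763, 0.101 and 0.105). Spdef and Creb3l1 had every knockout value above every wild-type value, which 6.08% of all genes showed. Of all genes, 45.6% were higher in knockout samples, and 10.1% were so at an unadjusted p under 0.05 (limma). These shares stand beside the counts of the other lists too. Muc5b was low in the same 3 samples as Scgb3a1, with 0.89, 4.18, 4.36 and -0.96 in wild-type and 4.98, 6.33, 0.97 and 6.91 in knockout samples 1 to 4. The summed signal of the list was 173 to 293 times the 75th percentile in wild-type and 192 to 752 in knockout samples.

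Other club cell genes followed Scgb3a1 in 5 of 12 pairs within genotypes. Of 17 tested, 12 were higher in knockout samples, 0 passed and 4 were higher at an unadjusted p under 0.05 (median 0.37, 0.20 without wild-type sample 2 and 0.23 without knockout sample 3). As for Cbr2, every knockout value was above every wild-type value for 3 of the 17, against 6.08% of all genes. Aldh1a7, an aldehyde dehydrogenase, differed by 0.63 ± 0.16 and Nupr1, a stress gene, by 0.37 ± 0.095 (SE; limma, adjusted p = 0.0831 and 0.0872). The summed signals were 835 to 1124 in wild-type and 1077 to 1298 in knockout samples. Ciliated cell genes were higher in 15 of 15 cases, against 45.6% of all genes, with 0 past the test. At an unadjusted p under 0.05 (limma) 7 were higher, against 10.1% of all genes. Every knockout value was above every wild-type value for 4 of the 15, against 6.08% of all genes. The median was 0.59, and 0.45 without knockout sample 4 (sums 35.3 to 52.8 in wild-type and 47.3 to 76.7 in knockout samples). Foxj1, the transcription factor of motile cilia, differed by 0.59 ± 0.13, Cdhr3 by 1.18 ± 0.27 and Ccdc39, a part of the axoneme, by 0.89 ± 0.21 (SE; limma, adjusted p = 0.0736, 0.0763 and 0.0783).

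Genes of other cell types and tissues varied with these genes, and their part in the differences was not tested. Basal and squamous epithelium genes and airway cartilage genes, as means, each followed Plunc in 12 of 12 pairs within genotypes. Krt5, a basal cell keratin, read -0.73 in wild-type sample 3 and 1.12 and -0.39 in knockout samples 2 and 4, against -3.88 or less elsewhere. Of 8 basal genes tested, 7 were higher in knockout samples and 0 passed (median 0.68, 0.19 without knockout sample 2, 0.30 without knockout sample 4 and 1.12 without knockout sample 3, and 0.40 over the 6 well above background on all 8 arrays; sums 6.51 to 8.56 in wild-type and 7.74 to 18.9 in knockout samples). Aqp3, a water channel, differed by 1.01 ± 0.46, Krt13 by 0.29 ± 0.19 and Krt14 by -0.20 ± 0.16 (SE). Of 8 cartilage genes tested, 4 were higher and 0 passed (median 0.100, -0.0059 without knockout sample 2, and 0.33 over the 7 well above background on all 8 arrays; sums 2.26 to 3.01 and 2.21 to 3.79). Col2a1, Matn1 and Hapln1, which define cartilage, did not pass the filter on dim probes. Col9a1 had passed it only through the wild-type samples and is counted among the genes that were lower. Col11a2, a cartilage collagen, differed by -0.33 ± 0.14, Chad by 0.84 ± 0.57 and Cytl1 by 0.59 ± 0.43 (SE).

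Muscle and fat genes were uneven between samples as well. Cardiac muscle genes were higher in 12 of 12 cases with 0 past the test (median 1.69, and 1.10 without wild-type sample 1). As means, cardiac genes followed Plunc in 10 of 12 pairs within genotypes, smooth muscle genes in 9 and fat and thymus genes in 11, beside 11 for the goblet, gland and upper airway list. The cardiac and Plunc signals parted in wild-type samples 2 and 3. In these samples Scgb3a1 read 6.84 and 7.32, and U46068 read 4.32 and 5.13. The summed cardiac signal was 441 in wild-type sample 2, where Plunc was 0.65, and 66.0 in wild-type sample 3, where Plunc was 6.32. It was 20.7 and 67.6 in wild-type samples 1 and 4, and 169, 595, 86.9 and 557 in knockout samples 1 to 4. Myh6, a cardiac myosin heavy chain, read 1.97 to 7.23 in wild-type and 5.12 to 7.57 in knockout samples. Tnnc1 differed by 1.71 ± 0.92 and Myl3 by 1.65 ± 0.90 (SE). Smooth muscle genes were higher in 7 of 8 cases with 0 past the test (median 0.78, and 0.41 without knockout sample 4). Their summed signals were 41.2 to 81.7 in wild-type and 53.7 to 179.6 in knockout samples. Synpo2 differed by 1.76 ± 0.53, Myh11 by 1.08 ± 0.47 and Actg2 by 1.04 ± 0.46 (SE). Lmod1, the gene that was lower, had passed the filter on dim probes only through the wild-type samples. Of 9 fat and thymus genes tested 0 passed, and Lep, Adipoq and Plin1 had passed the filter on dim probes only through the knockout samples. No count of directions is therefore given, and the median over the 9 appears only under the dependence on processing. Over the 6 of the 9 that were well above background on all 8 arrays the median was 0.79. The sums over the 9 were 2.02 to 63.8 in wild-type and 3.01 to 188 in knockout samples. These sums, and the mean of the list, include Lep, Adipoq and Plin1. Of the 6 genes well above background on all 8 arrays, Cd8b1 differed by -1.17 ± 0.31 and Dntt by -0.29 ± 0.13 (SE). The rest of the 6 were higher, Cfd by 3.22 ± 2.56, Cidec by 2.29 ± 1.13, Retn by 0.97 ± 1.10 and Cd1d1 by 0.62 ± 0.34 (SE). Lep, the fat hormone leptin, was not well above background in any wild-type sample.

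Alveolar genes were mostly lower in knockout samples, as were 13297 of the 24464 genes tested. Alveolar type 1 genes were lower in 10 of 10 cases with 0 past the test. At an unadjusted p under 0.05 (limma), where 13.4% of all genes were lower, 4 of these 10 were. The median of the list was -0.41, and its sums were 309 to 415 in wild-type and 219 to 399 in knockout samples. These sums were lowest in knockout samples 4 and 2, the brightest for Scgb3a1 and Plunc. Igfbp2 differed by -1.28 ± 0.30, Akap5 by -0.88 ± 0.25 and the water channel Aqp5 by -0.44 ± 0.15 (SE; limma, adjusted p = 0.0778, 0.102 and 0.133). Alveolar type 2 genes were lower in 7 of 10 cases with 0 past the test (median -0.22, and -0.076 without knockout sample 2; sums 1149 to 1379 and 1037 to 1433). Of these 10, 4 were lower at an unadjusted p under 0.05 (limma), against 13.4% of all genes. Lpcat1, which makes surfactant lipid, differed by -0.39 ± 0.11, the lipid transporter Abca3 by -0.51 ± 0.20 and the surfactant protein Sftpa1 by -0.54 ± 0.21 (SE).

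**Figure D4:**
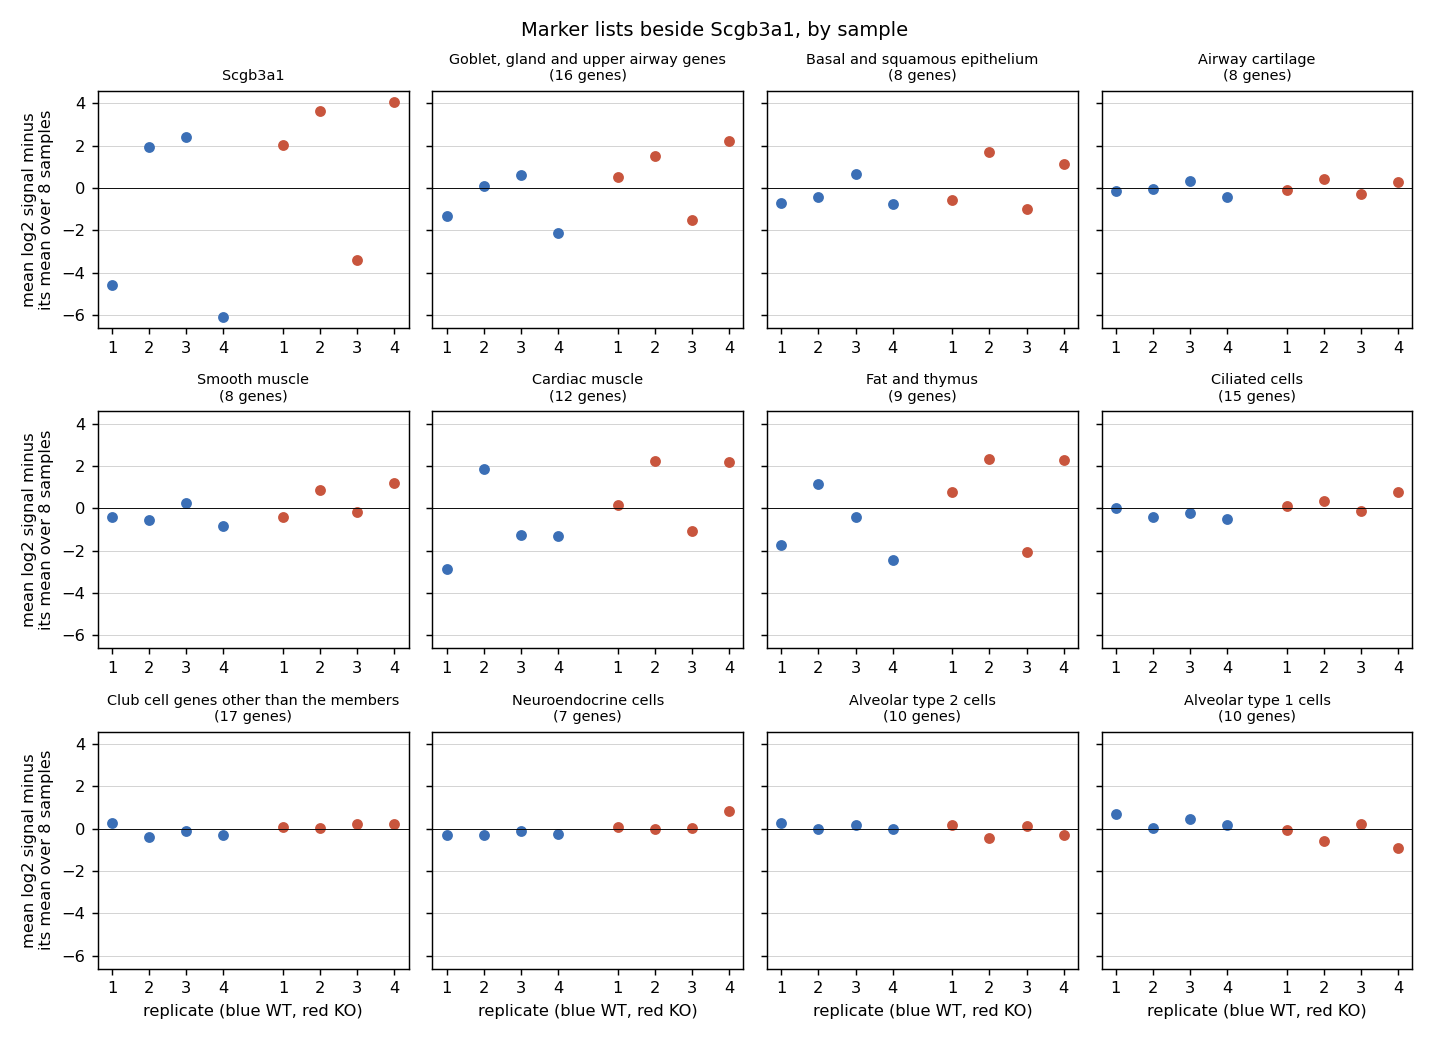
Each panel gives Scgb3a1, or the mean log2 signal of 1 gene list, in each sample minus its mean over the 8 samples (blue wild-type, red knockout, 4 samples each). The goblet, gland and upper airway list is low in wild-type samples 1 and 4 and knockout sample 3, as Scgb3a1 is, and the list of other club cell genes varies far less.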

How the data were processed

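The labels and file headers describe single-colour (Cy3) arrays read with Agilent Feature Extraction 10.7.1.1, with probe positions on mm9. The scanner files deposited by the authors hold an intensity for each spot, background-subtracted and detrended, with a surrogate for some spots. The authors also deposited a table of log2 values with a median of 5.63 on every array (r with scanner log2 signals at least 0.999); its centring is not explained in the sources used here. Control and outlier spots (154 to 245 per array) were dropped, spots of a probe averaged, and the 75th percentile subtracted on the log2 scale. Probes well above background on 3 of 4 arrays of a group were kept, and the brightest stood for its gene. Knockout minus wild-type was tested with limma 3.58.1 (R 4.3.3), two-sided, Benjamini-Hochberg over 24464 genes at 0.05, in a fit tested on simulated data. The number of arrays limits the precision.

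Samples were grouped by title. The members and lists were chosen with earlier results of these data known. Named genes were all members with every probe, up to 3 genes of smallest p in each list, and the 5 genes most like Scgb1a1 and Plunc. Ggps1, Sftpc, Muc5b, Agr2, Cfd, Cidec, Retn, Cd1d1, Krt5, Gp2, Col9a1, Lmod1, Adipoq, Plin1 and Reg3g lie outside that rule and were named with their values known. Some genes that the rule picks in the lists are not reported here. Lists are given as counts and medians, with no test. Alternatives were normexp (offset 50), quantile and median scaling, other filters, the deposited table, a replicate block, averaged probes, a variance trend, and each sample left out.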

Additional observations from a re-analysis of the deposited data

How the results depend on the processing

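No member passed the test as reported. With normexp background correction, with no filter on dim probes, with a filter on all 8 arrays and with a variance trend, 1 did (Cbr2, limma), and 0 did in each of the 8 fits without 1 sample. Scgb1a1 was -0.011 in the deposited value table, the only reversal among 143 values of members and U46068. The 204 medians of the 12 lists moved by less than 1 SD between samples, but some by over 1.5 times: with a filter on all 8 arrays the fat and thymus median went from 2.29 to 0.79 (9 genes, 3 of which had passed only through knockout samples, against 6) and the cartilage median from 0.100 to 0.33. The fat and thymus median was 1.32 with normexp, 1.24 without knockout sample 2 and 3.06 without knockout sample 3, and the smooth muscle median went from 0.78 to 0.41 without knockout sample 4. The 8 higher and 7 lower genes called among all became 228 and 284 with normexp, 2728 and 786 with no filter, 59 and 68 with a filter on all arrays, 159 and 258 with the trend, 13 and 23 with median centring, 3 and 3 with averaged probes, and 11 and 33 with the replicate block. With 1 sample left out they ran from 1 and 0 (without wild-type sample 2, or knockout sample 1 or 2) to 11 and 8 (without knockout sample 3). The causes were not tested. The replicate block gave 0 members past the test. Samples sharing a replicate number had correlated deviations of 0.13, 0.47, 0.012 and -0.29, and 1 of 4 matched its own number best, so the numbers were not taken as pairs. A slide block was not run because there was 1 slide. The difference of Plunc was 2.15 with normexp, against 2.68 as reported. Values not well above background, such as Plunc in wild-type sample 4, are bounds only.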

Other observations

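Reg3g, a secreted antibacterial lectin of mucosal epithelium, was picked out after the values were seen, because its SD within genotype of 4.75 ranked 2 of 24464 genes, next to Plunc. In replicate order, the wild-type samples gave -2.05, 4.51, 5.71 and -5.90, and the knockout samples 4.83, 6.94, -0.98 and 7.49. It was low in the same 3 samples as Scgb3a1. In wild-type sample 4 it was not well above background, so its SD, rank and difference rest in part on that reading. The genotypes overlapped (difference 4.00 ± 2.92, SE, n = 4 per group; limma, adjusted p = 0.425).

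Neuroendocrine genes, which mark sensory cells of the airway epithelium, were higher in knockout samples in 6 of 7 cases, against 45.6% of all genes. In this list 0 passed the test and 2 were higher at an unadjusted p under 0.05 (limma), against 10.1% of all genes. The median difference of the list was 0.44, and 0.18 without knockout sample 4. The summed signal was 5.16 to 5.40 in wild-type and 6.09 to 9.05 in knockout samples, with the highest sum in knockout sample 3, which was low for Scgb3a1. Calca, the precursor of calcitonin and CGRP, differed by 1.06 ± 0.31 and Chgb by 0.70 ± 0.24 (SE).

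Of 28 other names of the secretoglobin and BPI-fold families, 8 had a probe and 3 were tested, U46068 among them. Lbp, which carries LPS to its receptor, differed by 0.51 ± 0.25 and the lipid transfer protein Pltp by -0.24 ± 0.20 (SE; limma, adjusted p = 0.256 and 0.469). Abpb, Bpi and Bpil1 were not well above background on any array, and Abpa and Psp were on 1 array each.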
